A study of Mus musculus with 9 samples.

Results

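The genes described here are 6 that are known from other work to follow the growth of fat mass in mice, *Mest*, *Nnat*, *Sfrp5*, *Bmp3*, *Npr3* and *Egfl6*. They were taken by their gene names from the 56748 genes counted in epididymal adipose tissue. RNA was sequenced at 3 phases of diet-induced weight loss with 3 libraries per phase. Every mouse was a wild-type C57BL/6J male that was 8 weeks old when feeding with high-fat diet (HFD) began, and every mouse received HFD for 8 weeks. Pre denotes the end of these 8 weeks, WL1 denotes 1 further week on standard diet (SD), and WL2 denotes 2 further weeks on SD. The diet in use differs between Pre and the other phases, while WL1 and WL2 share SD. Time on SD, time since the start and age differ between all phases. These cannot be told apart here, nor from the diet where it differs. The sources used here do not say whether the libraries came from separate mice, so the p-values measure the spread between these libraries. All 6 genes were among the 18510 genes with a level of at least 0.5 CPM (counts scaled to a common library size) in at least 1 library, but *Egfl6* passed only through a WL2 library, where it was highest. It is therefore described by its levels, without a test, and left out of the counts of genes past the threshold.

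White adipose tissue stores energy by filling existing adipocytes and by adding new ones, and it secretes proteins that report its lipid content or act on neighboring cells. *Mest* and *Nnat* are imprinted genes expressed from the paternal allele, and both encode proteins of the endoplasmic reticulum membrane. *Sfrp5* encodes a secreted decoy that binds Wnt ligands, and *Bmp3* encodes a member of the bone morphogenetic protein (BMP) family that opposes the signaling of other BMPs. *Npr3* encodes the clearance receptor that removes natriuretic peptides, which stimulate lipolysis in adipocytes through another receptor. *Egfl6* encodes a secreted matrix protein related to nephronectin. None of the files holds a weight of the fat pads, so the genes were not set against fat mass itself. The paper reports that epididymal fat became lighter during this weight loss.

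The total counts per library ranged from 16434450 to 22729072. Markers fixed for the tissue were abundant, with *Adipoq*, the adipocyte hormone adiponectin, at a mean of 2757 CPM at Pre, while 0 of 6 epididymis markers passed the filter. Libraries of Pre differed in markers of other cells. Pre replicate 2 had 202 CPM summed over 8 lymphocyte markers against 6.13 and 7.43 CPM in the other Pre libraries. Pre replicate 1 had 37.3 CPM summed over 6 mesothelial markers against 366 and 327 CPM in replicates 2 and 3. Without Pre replicate 2, the number of members past the threshold was 2, 2 and 2 in the 3 comparisons, as it was with all libraries, and without Pre replicate 1 it was 0, 3 and 2. The mesothelial markers, of the cell layer that covers the fat pad, summed to 44.3 to 218 CPM at WL1 and to 233 to 658 CPM at WL2. All 6 of them had a negative log2 fold change at WL1 against Pre (median -0.90) and a positive one at WL2 against WL1 (median 1.84), and 0 passed the threshold. Their part in the results was not tested. The summed level of 10 macrophage markers was 3060 to 5940 CPM at WL1, above the 1350 to 2490 CPM at Pre, and that of 10 fibroblast and progenitor markers was 14200 to 18200 CPM at WL2, above the 8980 to 12200 CPM at Pre. The most abundant markers weigh most in such sums. At WL1 against Pre, 9 macrophage markers had a positive log2 fold change and 1 a negative one (median 1.10). At WL2 against Pre, 7 fibroblast and progenitor markers had a positive one and 3 a negative one (median 0.22). Past the threshold against Pre were 1 of 10 macrophage markers at WL1 (*Trem2*, higher) and 2 of 10 fibroblast and progenitor markers at WL2 (*Dcn* and *Gsn*, higher). Of all tested genes, 2.6% were higher at WL1 and 3.35% at WL2. Of 6 smooth muscle and pericyte markers, 2 passed as lower at both times (*Acta2* and *Cspg4*), beside 4.69% and 6.66% of all tested genes. In that list 5 log2 fold changes were negative and 1 was positive at both times (medians -0.81 and -0.67). No marker of these lists was at 0 in any phase. The part of these shifts in the results was not tested, and in whole tissue fewer cells of a type and less RNA per cell cannot be told apart.

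The 6 genes did not move as a group, so the name of expansion marker stands for what is known of them elsewhere and not for a common direction in these libraries. *Mest* and *Npr3* fell after 1 week and were below Pre after 2 weeks, and *Sfrp5* fell between the first and the second week. *Nnat* and *Bmp3* passed the threshold in no comparison. Of the 5 genes without *Egfl6*, 0 were higher and 2 were lower at WL1 against Pre at an adjusted p below 0.05, where 2.6% of all tested genes were higher and 4.69% were lower. At WL2 against Pre, 0 were higher and 2 were lower, against 3.35% and 6.66% of all tested genes. At WL2 against WL1, 0 were higher and 2 were lower, against 1.31% and 2.37%. The libraries of the compared phases did not overlap in 4, 3 and 4 of these 5 genes, where 28.7%, 30.9% and 30.3% of all tested genes did not overlap. The median log2 fold change of the 5 genes was -0.057, -0.39 and -0.31 in the 3 comparisons, beside 0.021, 0.0084 and -0.0014 over all tested genes. A test for any difference among the 3 phases passed for *Mest* (adjusted p = 2.45e-05), *Npr3* (adjusted p = 0.0132) and *Sfrp5* (adjusted p = 0.0406), 3 of the 5 genes, where 13.1% of all tested genes passed. The members were chosen with earlier results of these data known, so these counts are no independent test of the group.

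**Figure D1:**
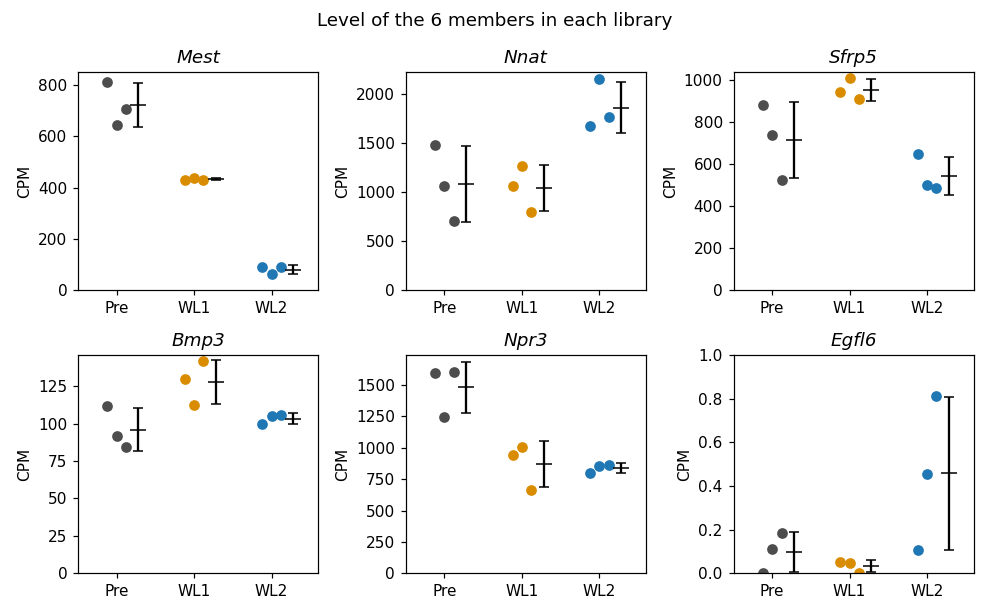
Level of each gene in each library, in CPM scaled with TMM factors, at Pre (grey), WL1 (orange) and WL2 (blue). Points are libraries, and the black bars give the mean ± SD of 3 libraries. *Mest* steps down at WL1 and again at WL2, *Npr3* steps down once, *Sfrp5* and *Bmp3* are highest at WL1, *Nnat* is highest at WL2, and *Egfl6* stays below 1 CPM on its own scale.

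*Mest* (ENSMUSG00000051855), whose product resembles hydrolases and which marks expanding adipocytes, lies on chromosome 6 from 30723546 to 30748464 on the plus strand in the authors' table, which names no build. Its level was 814, 646 and 706 CPM in the 3 Pre libraries. It was 432, 438 and 428 CPM at WL1 and 91.4, 61.4 and 88.6 CPM at WL2. Every WL1 library was below every Pre library, and every WL2 library was below every WL1 library. *Mest* fell by 0.74 on the log2 scale from Pre to WL1 (SE 0.15, adjusted p = 0.0206), which is a 1.67-fold drop in the fitted level. The decrease at WL2 against Pre was 8.97-fold (log2 fold change -3.16, SE 0.17, adjusted p = 1.25e-05). Of the 14639 genes with a mean of at least 1 CPM, it ranked 69 by size of fall and 3 by p-value in that comparison. Between WL1 and WL2 it fell by 2.43 on the log2 scale (SE 0.16, adjusted p = 0.000228). The second and larger step was past the threshold under all 19 alternative settings, as was the difference between WL2 and Pre. The first step kept its direction in all of them, but its call was lost without Pre replicate 1 (log2 fold change -0.64) and without WL1 replicate 1, 2 or 3 (-0.74, -0.75 and -0.74).

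*Mest* is transcribed from more than 1 start, and the bases before 2 of them are shown because they are alternative starts of the gene that changed most here and differ in their density of CpG, the base pair step at which DNA is methylated. The stretch before the start of *Nnat* is given beside them, since *Nnat* is the other imprinted member. Each is 250 bases long, read 5′ to 3′ on the strand of the gene from the RefSeq table of build GRCm38.p6, at chr6:30733256-30733505 and chr6:30737800-30738049 on the plus strand for *Mest* and at chr2:157559828-157560077 on the plus strand for *Nnat*. Capitals mark the only motif match found.
Mest, upstream start: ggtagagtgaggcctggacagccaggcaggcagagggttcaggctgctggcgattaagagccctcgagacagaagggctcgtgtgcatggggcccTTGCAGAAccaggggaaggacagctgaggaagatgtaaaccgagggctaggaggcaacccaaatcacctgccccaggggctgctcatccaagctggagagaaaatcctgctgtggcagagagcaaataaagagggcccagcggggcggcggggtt
Mest, downstream start: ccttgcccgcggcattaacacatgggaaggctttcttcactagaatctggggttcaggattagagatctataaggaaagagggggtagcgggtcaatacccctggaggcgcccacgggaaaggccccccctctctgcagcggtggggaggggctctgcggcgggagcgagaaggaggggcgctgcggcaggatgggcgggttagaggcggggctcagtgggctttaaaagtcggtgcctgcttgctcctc
Nnat: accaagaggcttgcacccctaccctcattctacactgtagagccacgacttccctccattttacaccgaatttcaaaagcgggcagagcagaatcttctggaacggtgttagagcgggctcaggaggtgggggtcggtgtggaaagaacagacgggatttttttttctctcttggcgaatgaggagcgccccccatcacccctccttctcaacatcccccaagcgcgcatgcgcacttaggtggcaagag

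The windows searched ran from 250 bases before to 50 after each start, on both strands, for the nuclear receptor half-site AGGTCA, the motif TTGCNNAA of C/EBP factors, TCACNCCAC of SREBP, TGACGTCA of CREB, the E-box CACGTG, the TATA box as TATAAA, and CTTTGAA of the TCF and LEF factors. Of all 32851 promoter windows, 16.3%, 10.8%, 1.24%, 1.79%, 7.15%, 13.6% and 5.14% held these motifs in that order. No 2 of these motifs overlapped in a member, since the only match in the windows of the 5 genes with an entry was the C/EBP motif 155 bases before the upstream start of *Mest*. The ratio of observed to expected CpG was 0.327 at that upstream start, 0.59 at the downstream start and 0.69 at *Nnat*, where the median of all windows was 0.384. The GC content was 59.3%, 62.7% and 57.3%, where the median was 52.7%. These are descriptions of letters in the reference, and no binding or methylation was measured.

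The gene for *Copg2*, which encodes a subunit of the coat of transport vesicles, runs antisense to *Mest* and shares 912 exon bases with it, 23.1% of the exon bases of *Mest* and 17.8% of its own. No source used here gives the strand setting of the counting, so reads from the shared end cannot be assigned to either gene with certainty. *Copg2* fell by 1.40 on the log2 scale from Pre to WL2 (SE 0.13, adjusted p = 0.000158) and by 0.98 from WL1 to WL2 (SE 0.13, adjusted p = 0.00753), with the call kept in all 19 alternatives. Between Pre and WL1 its log2 fold change was -0.43 (adjusted p = 0.0792). The microRNA gene *Mir335* within *Mest* had only 5 reads at Pre, 15 at WL1 and 3 at WL2, and these libraries do not measure mature microRNAs.

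Other genes around *Mest* also fell, downstream of it and, for *Klhdc10* alone, upstream. Of the 8 tested protein-coding genes within 500 kb that are reported here, a window chosen after the values were seen, 0 were higher in any comparison and 2, 3 and 2 were lower at WL1 against Pre, WL2 against Pre and WL2 against WL1. The lower share of all tested genes was 4.69%, 6.66% and 2.37%. Both comparisons with WL2 count *Copg2*, whose reads from the end shared with *Mest* cannot be assigned with certainty. *Klf14*, an imprinted transcription factor gene whose start lies 212 kb downstream, went from 20.4 ± 4.09 CPM at Pre to 10.7 ± 1.47 at WL1 and then 3.38 ± 0.437 at WL2 (SD, n = 3). It fell in all 3 comparisons. Against Pre the log2 fold change was -0.93 at WL1 (adjusted p = 0.0161) and -2.59 at WL2 (adjusted p = 4.31e-05), and between WL1 and WL2 it was -1.66 (adjusted p = 0.00433). The first of these calls was lost without Pre replicate 1 or WL1 replicate 2 or 3. *Klhdc10*, at -322 kb from the start of *Mest*, fell by 0.52 at WL1 (adjusted p = 0.0136, lost without Pre replicate 1 or WL1 replicate 3) and by 0.61 at WL2 (adjusted p = 0.00409), both against Pre. The nearest tested upstream neighbor, *Cep41*, had a log2 fold change of -0.58 at WL2 against Pre (adjusted p = 0.0536). *Ube2h*, at -419 kb, went the other way in that comparison, with 0.43 (adjusted p = 0.0570).

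**Figure D2:**
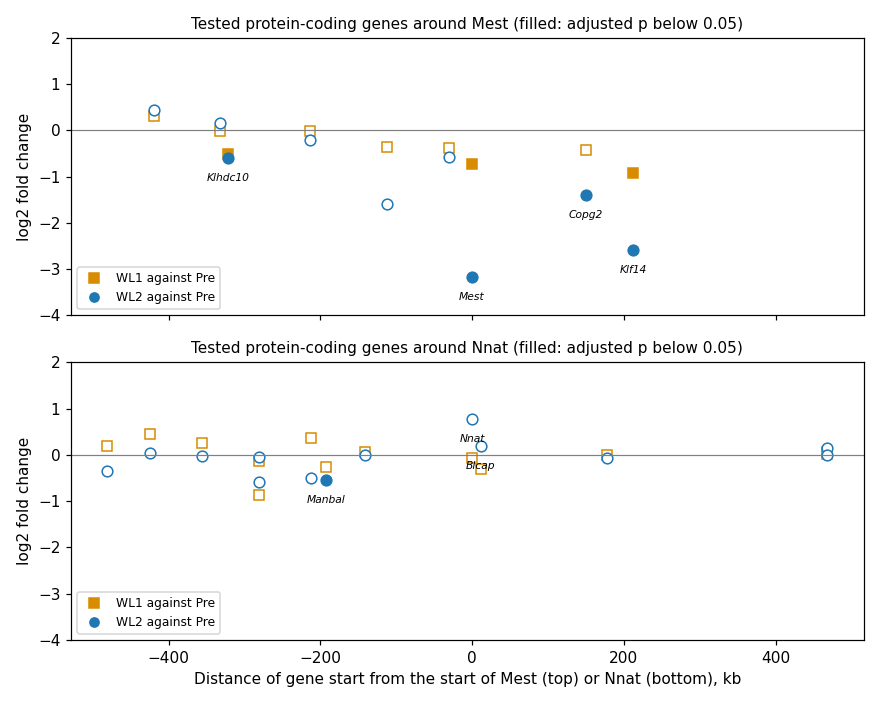
Log2 fold change (vertical axis) of the tested protein-coding genes reported here around *Mest* (top) and *Nnat* (bottom) by the distance in kb of their starts (horizontal axis). Orange squares are WL1 against Pre, blue circles are WL2 against Pre, and filled symbols have an adjusted p below 0.05. *Copg2* and *Klf14* lie below -1 with *Mest* at WL2, whereas *Manbal* is the only filled symbol around *Nnat*.

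*Nnat* (ENSMUSG00000067786), which encodes the small proteolipid neuronatin, lies on chromosome 2 from 157401998 to 157404442 on the plus strand in the authors' table. Its level was 1487, 1065 and 706 CPM at Pre and 1067, 1269 and 795 CPM at WL1, ranges that overlap widely. At WL2 it was 1676, 2157 and 1764 CPM, above every other library, although the gap between the lowest WL2 and the highest Pre library was smaller than the spread within Pre. The log2 fold change at WL2 was 0.78 against Pre (SE 0.26, 95% interval 0.22 to 1.35, adjusted p = 0.0826) and 0.84 against WL1 (SE 0.26, 95% interval 0.27 to 1.40, adjusted p = 0.0926), so neither difference passed the threshold. Without Pre replicate 1, the highest Pre library, the difference from Pre was 1.08 and passed (adjusted p = 0.0275), as it did with DESeq2, without the filter and with library totals as the only scaling. The difference from WL1 passed without the filter (adjusted p = 0.0152), with DESeq2 (adjusted p = 0.0115) and in a fit of the 2 phases alone (adjusted p = 0.0377). WL1 and Pre differed by -0.057 (95% interval -0.62 to 0.51, adjusted p = 0.918). At WL2 *Nnat* ranked 25 of all genes by fragments scaled by gene length and library size (FPKM), after 60 at Pre and 53 at WL1.

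The gene for *Blcap* runs antisense to *Nnat*, which lies within an intron in 3 of 6 *Blcap* transcripts and shares 0 exon bases with it. *Blcap* passed the threshold in no comparison, with log2 fold changes of -0.30, 0.18 and 0.48 at WL1 against Pre, WL2 against Pre and WL2 against WL1 (adjusted p = 0.183, 0.390 and 0.0649). Of the 12 tested protein-coding neighbors of *Nnat* within 500 kb, 0 were higher in any comparison. *Manbal* was the 1 that fell, by 0.54 on the log2 scale at WL2 against Pre (adjusted p = 0.0228), a call lost without Pre replicate 1 or WL2 replicate 2 or 3 and with library totals as the only scaling. In that comparison 6.66% of all tested genes were lower.

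Imprinted genes changed in both directions. Of 33 tested imprinted genes other than these 2, 3 rose and 2 fell at WL1 against Pre, 5 rose and 3 fell at WL2 against Pre, and 1 rose and 4 fell at WL2 against WL1. Their median log2 fold changes were 0.29, 0.36 and 0.075, and the fold change was positive in 20, 25 and 18 of the 33 genes and negative in 13, 8 and 15, whether or not it passed. Of all tested genes, 2.6%, 3.35% and 1.31% passed the threshold as higher in these comparisons, and 4.69%, 6.66% and 2.37% as lower. *Zim1*, a zinc finger gene, rose from 3.68 to 16.8 CPM between Pre and WL2 (log2 fold change 2.21, adjusted p = 0.0369), a call kept in 2 of the 9 fits that left out 1 library, those without Pre replicate 1 or WL1 replicate 3. *Zrsr1* rose by 1.11 (adjusted p = 0.00408) and *Plagl1*, a zinc finger regulator of growth, by 1.03 (adjusted p = 0.0121, lost without WL2 replicate 3) in the same comparison. *Kcnq1ot1* and *Ppp1r9a* were the other 2 that rose, with adjusted p = 0.0494 and 0.0483, calls kept in 1 and 3 of the 9 fits without 1 library. The 3 that fell at WL2 against Pre were *Klf14*, *Copg2* and *Ndn*, a growth suppressor gene that fell by 0.64 (adjusted p = 0.0267, kept in 5 of these 9 fits). *Peg10*, a gene derived from a retrotransposon, was 39.4 CPM at Pre, 166 CPM at WL1 and 46.2 CPM at WL2, and it rose by 2.07 and then fell by 1.84 (adjusted p = 0.00128 and 0.00669, the second lost without WL2 replicate 2).

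*Sfrp5* (ENSMUSG00000018822), on chromosome 19 from 42186410 to 42190691 on the minus strand in the authors' table, was highest after 1 week of SD. Its level was 882, 739 and 525 CPM at Pre, 941, 1011 and 910 CPM at WL1, and 649, 502 and 484 CPM at WL2. Every WL1 library was above every library of the other phases, while Pre and WL2 overlapped. The step from WL1 to WL2 was the 1 that passed, with a decrease of 0.81 on the log2 scale (SE 0.19, adjusted p = 0.0436, 1.75-fold lower). Its direction held in all 19 alternatives, from -0.95 to -0.73, but the call was lost without WL1 replicate 1, 2 or 3, without WL2 replicate 2 or 3, with upper quartile scaling and with limma on FPKM. The log2 fold change was 0.42 at WL1 against Pre (95% interval 0.0063 to 0.82, adjusted p = 0.199) and -0.39 at WL2 against Pre (95% interval -0.80 to 0.018, adjusted p = 0.211).

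The related decoys *Sfrp1*, *Sfrp2* and *Sfrp4* were expressed far below *Sfrp5*, with means of 23.1, 29.0 and 17.0 CPM at Pre, and passed the threshold in no comparison. *Sfrp4* ran the other way between WL1 and WL2, with 11 ± 1.59 and 19.4 ± 3.28 CPM (SD, n = 3), although its log2 fold change of 0.82 did not pass (adjusted p = 0.0662). Of 30 tested genes for Wnt antagonists, ligands and receptors other than *Sfrp5*, 1 rose and 3 fell at WL1 against Pre, 1 rose and 3 fell at WL2 against Pre, and 0 rose and 1 fell at WL2 against WL1, with medians of -0.35, -0.14 and 0.0026. Beside them, 2.6%, 3.35% and 1.31% of all tested genes rose and 4.69%, 6.66% and 2.37% fell. At WL1 the receptor gene *Fzd7* rose by 0.82 (adjusted p = 0.0441), and the ligand genes *Wnt5a* and *Wnt11* fell by 0.62 (adjusted p = 0.0392) and 0.53 (adjusted p = 0.0373). *Wnt4* also fell, from 2.30 ± 2.965 to 0.0556 ± 0.0562 CPM (SD, n = 3, adjusted p = 0.0382). Its Pre libraries differed widely, and this call was also lost without Pre replicate 2. Each of these calls was lost without WL1 replicate 2 or 3, among other libraries, and held in 2 or 3 of the 9 fits that left out 1 library. At WL2 against Pre the receptor gene *Fzd5* fell from 32.3 ± 6.53 to 15.4 ± 3.13 CPM (SD, n = 3, log2 fold change -1.07, adjusted p = 0.00920), in all 19 alternatives. In the same comparison *Wnt5a* fell by 0.61 (adjusted p = 0.0327, kept in 2 of these 9 fits) and the receptor gene *Fzd1* rose by 0.63 (adjusted p = 0.0375, kept in 3). The secreted antagonist *Wif1* was at 0.925, 1.85 and 0.301 CPM in the 3 phases and was lower at WL2 than at Pre (adjusted p = 0.0488, kept in 0 of these 9 fits) and than at WL1 (adjusted p = 0.0173, kept in 5).

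*Bmp3* (ENSMUSG00000029335), on chromosome 5 from 99002274 to 99032255 on the plus strand in the authors' table, had the narrowest range of phase means among the 5 genes with measurable expression, from 95.8 to 128 CPM. Its level was 112, 91.5 and 84.1 CPM at Pre, 130, 112 and 142 CPM at WL1, and 99.4, 105 and 106 CPM at WL2. The WL1 libraries were the highest, though the lowest of them was level with the highest Pre library at 3 digits. The log2 fold change was 0.42 at WL1 against Pre (SE 0.13, 95% interval 0.13 to 0.70, adjusted p = 0.0812) and -0.31 at WL2 against WL1 (95% interval -0.59 to -0.020, adjusted p = 0.204). For WL2 against Pre it was 0.11 with a 95% interval from -0.18 to 0.40 (adjusted p = 0.628), so at that time a change in the fitted level as large as that of *Mest* lay outside the interval. With library totals as the only scaling, the WL1 difference passed at a log2 fold change of 0.52 (adjusted p = 0.0355).

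*Gdf10*, the closest relative of *Bmp3* and also called BMP3B, was 36.9 ± 12.1, 34.5 ± 5.89 and 36.9 ± 5.42 CPM at Pre, WL1 and WL2 (SD, n = 3) and passed in no comparison. The 95% interval of its log2 fold change was -0.62 to 0.43 at WL1 and -0.52 to 0.52 at WL2, both against Pre. *Chrdl1*, which encodes a secreted antagonist related to chordin, was 118 ± 13.1 CPM at Pre, then 367 ± 112 at WL1 and later 550 ± 14.9 at WL2 (SD, n = 3). It rose by 1.64 (adjusted p = 0.00152) and by 2.22 (adjusted p = 0.000132) on the log2 scale against Pre, in all 19 alternatives. Over all tested genes, 2.6%, 3.35% and 1.31% rose in the 3 comparisons and 4.69%, 6.66% and 2.37% fell. Of 35 tested genes for BMP ligands, receptors, antagonists and mediators, 1 rose and 1 fell at WL1 against Pre, 4 rose and 2 fell at WL2 against Pre, and 2 rose and 0 fell at WL2 against WL1, with medians of -0.18, 0.10 and 0.098. Besides *Chrdl1*, those that rose at WL2 against Pre included *Id1*, a transcriptional target of BMP signaling, by 1.24 (adjusted p = 0.00802, in all 19 alternatives) and the mediator *Smad9* by 1.53 from 0.870 CPM (adjusted p = 0.0206, kept in 5 of 9 fits without 1 library). The receptor gene *Bmpr1a* fell by 0.50 (adjusted p = 0.0372, kept in 3 of these 9) and the ligand gene *Gdf5* fell from 1.39 to 0.321 CPM (adjusted p = 0.0273, kept in 4). *Gdf5* was also the 1 that fell at WL1 (adjusted p = 0.0493, kept in 1), and the antagonist *Chrd* rose from WL1 to WL2 by 0.60 (adjusted p = 0.0496, kept in 3).

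*Npr3* (ENSMUSG00000022206), on chromosome 15 from 11839982 to 11907373 on the minus strand in the authors' table, fell in the first week and then stayed level. It was 1593, 1245 and 1606 CPM at Pre, 940, 1007 and 664 CPM at WL1, and 795, 857 and 864 CPM at WL2. Every library on SD was below every Pre library, while WL1 and WL2 overlapped. The decrease against Pre was 0.77 on the log2 scale at WL1 (SE 0.17, adjusted p = 0.0231, 1.70-fold) and 0.82 at WL2 (SE 0.17, adjusted p = 0.0125, 1.77-fold). WL2 against WL1 gave -0.053 with a 95% interval from -0.42 to 0.31 (adjusted p = 0.903). The direction against Pre held in all 19 alternatives. The WL1 call was lost without Pre replicate 1 or 3, without WL1 replicate 1 or 3, with limma on log2(FPKM + 0.1) and with the replicate number as a block (-0.78, adjusted p = 0.0549), and the WL2 call was lost without WL2 replicate 2 (-0.84, adjusted p = 0.0550).

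The signaling receptors for the same peptides did not follow *Npr3*. *Npr1*, the receptor through which atrial and B-type natriuretic peptides raise cyclic GMP, was 110 ± 4.83, 124 ± 27.3 and 140 ± 9.51 CPM at Pre, WL1 and WL2 (SD, n = 3). *Npr2*, the receptor for C-type natriuretic peptide, was 95.7 ± 18.2, 110 ± 28.4 and 132 ± 14.7 CPM. For both, all WL2 libraries were above all Pre libraries, but the log2 fold changes of 0.35 and 0.46 did not pass (adjusted p = 0.176 and 0.171). Of 11 tested genes for natriuretic peptides, receptors and effectors other than *Npr3*, 0 rose in any comparison, with medians of 0.0045, -0.14 and 0.063. In the 3 comparisons 1, 1 and 0 of them fell, beside 4.69%, 6.66% and 2.37% of all tested genes. The 1 that fell was *Mme*, which encodes neprilysin, the peptidase that degrades natriuretic peptides. *Mme* was 80.9 ± 13.2 CPM at Pre, then 44.0 ± 5.30 at WL1 and later 33.3 ± 3.13 at WL2 (SD, n = 3), and it fell against Pre by 0.88 (adjusted p = 0.00739) and 1.28 (adjusted p = 0.000530) on the log2 scale, in all 19 alternatives. The noncoding gene *Gm5144* runs antisense to the start of *Npr3* and shares 321 exon bases with it. It fell by 1.63 and 1.60 at WL1 and WL2 against Pre (adjusted p = 0.00971 and 0.00658), from 245 reads at Pre to 81 at WL1 and 75 at WL2. The shared bases are 33.9% of its exon bases and 3.42% of those of *Npr3*. Reads from them cannot be assigned to either gene without the strand setting.

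*Egfl6* (ENSMUSG00000000402), on chromosome X from 165306003 to 165368716 on the minus strand in the authors' table, was close to the limit of detection. It had 0, 2 and 4 reads at Pre, 1, 1 and 0 at WL1, and 2, 8 and 14 at WL2. The sum was thus 6 reads at Pre, 2 at WL1 and 24 at WL2, most of them in WL2 replicates 2 and 3. Scaled to the library totals multiplied by their TMM factors, the ratio of the sums was 4.27 at WL2 against Pre and 0.326 at WL1 against Pre. These ratios are descriptions of few reads, and WL2 is the phase through which the gene passed the filter. Its relative *Npnt*, which encodes nephronectin, was also low at 3.13, 3.06 and 2.23 CPM and passed in no comparison. Of 10 tested genes of the nephronectin family and its integrin partners, 0 rose in any comparison, with medians of 0.077, -0.11 and -0.15. In the 3 comparisons 0, 1 and 1 of them fell, beside 4.69%, 6.66% and 2.37% of all tested genes. The 1 at WL2 against Pre was *Itgb5*, an integrin subunit gene, by 0.57 (adjusted p = 0.0144, lost without WL2 replicate 2 or 3), and the 1 at WL2 against WL1 was *Itga5*, by 0.77 (adjusted p = 0.0494, kept in 3 of 9 fits without 1 library).

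**Figure D3:**
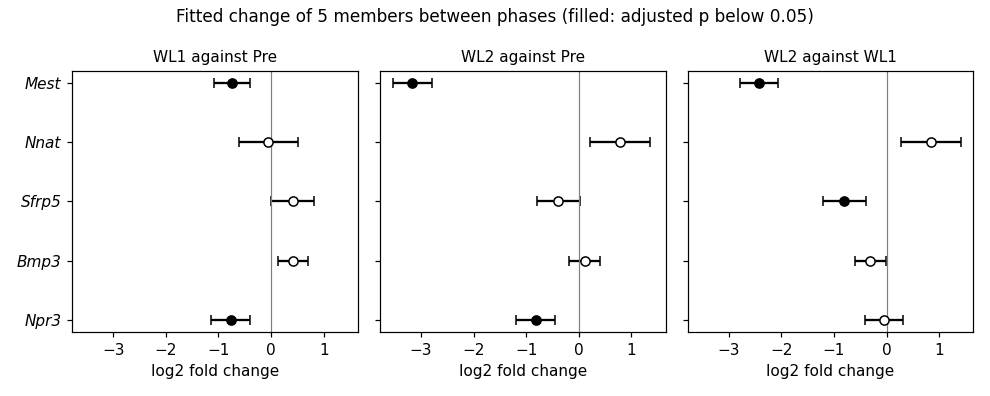
Fitted log2 fold change (horizontal axis) of 5 genes (vertical axis) in the 3 comparisons, with 95% intervals from the edgeR fit over 9 libraries. Filled points have an adjusted p below 0.05. *Mest* is filled and below 0 in all 3 panels, *Npr3* in the first 2 and *Sfrp5* in the third, and *Nnat* lies above 0 but open in the 2 panels that involve WL2 (*Egfl6* is left out because of its few reads).

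The level per gene length, in FPKM, put the 6 genes in another order at WL2 than at Pre and WL1. At Pre *Nnat* (557 ± 200 FPKM) and *Sfrp5* (353 ± 88.3) came first and their libraries overlapped, followed by *Mest* (172 ± 19.97) and *Npr3* (148 ± 20.3), whose libraries also overlapped, then by *Bmp3* (12.2 ± 1.80) and *Egfl6* (0.0341 ± 0.0323, all SD, n = 3). At WL1 the order was the same, with *Nnat* (528 ± 119) and *Sfrp5* (465 ± 23.5) again overlapping and *Mest* (102 ± 0.809) above *Npr3* (85.8 ± 17.8) in every library. At WL2 *Nnat* (958 ± 143) stood clear of *Sfrp5* (269 ± 39.6), and *Mest* (19.1 ± 3.78) had dropped below *Npr3* (83.8 ± 5.21) to just above *Bmp3* (13.1 ± 0.656), without overlap between any neighbors in the order. Among all genes, *Mest* went from rank 242 to 392 and 2410 by mean FPKM.

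Genes of mature adipocytes were taken as a reference level within each library. Of 20 adipocyte genes, 0 rose and 5 fell at WL1 against Pre, 3 rose and 3 fell at WL2 against Pre, and 4 rose and 2 fell at WL2 against WL1, with medians of -0.49, -0.067 and 0.39. Beside these, 2.6%, 3.35% and 1.31% of all tested genes rose and 4.69%, 6.66% and 2.37% fell. Leptin (*Lep*), the hormone that reports fat stores, fell at each step, from 5430 ± 716 CPM at Pre to 3052 ± 106 at WL1 and then 1328 ± 152 at WL2 (SD, n = 3), with log2 fold changes of -0.83, -2.03 and -1.2 in the 3 comparisons (adjusted p = 0.00661, 2.03e-05 and 0.00368), in all 19 alternatives. *Dgat2*, which encodes the last enzyme of triglyceride synthesis, fell by 1.62 and 2.42 against Pre (adjusted p = 0.000262 and 1.25e-05). The adipokine gene *Cfd*, which encodes adipsin, rose by 1.61 at WL2 against Pre (adjusted p = 0.0299, lost without Pre replicate 2 or 3 or WL2 replicate 2 or 3). *Retn* (resistin), *Cidec* and *Plin1* (proteins of the lipid droplet) were the others that fell at WL1, by 1.86, 0.84 and 0.52, and the call of *Plin1* was kept in 1 of 9 fits without 1 library. At WL2 against Pre *Cidec* also fell, by 0.67 (adjusted p = 0.00456), and the receptor gene *Adrb3* and the glycerol channel gene *Aqp7* rose by 0.97 and 0.66 (adjusted p = 0.0301 and 0.0335, kept in 3 and 4 of these 9). From WL1 to WL2 *Retn* and *Adrb3* rose by 1.51 and 1.59 (lost without WL2 replicate 2 or 3 and without WL2 replicate 2), *Cfd* by 1.94 and *Pparg* by 0.54 (kept in 4 and 3 of these 9), and *Dgat2* fell by 0.80 (lost without WL2 replicate 2 or 3).

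Set against the mean log2 CPM of these 20 genes in the same library, the low point of *Mest* at WL2 stayed as deep, while the picture at WL1 changed. That mean was itself lower at WL1, with 10.16, 10.29 and 9.82 against 10.79, 10.48 and 10.46 at Pre. This raises the difference from it at WL1 for every gene. *Mest* stood at -1.09 from the adipocyte genes at Pre, -1.33 at WL1 and -4.18 at WL2 on the log2 scale, with WL1 and Pre overlapping. *Npr3* stood at -0.054, -0.35 and -0.78, and its 3 phases did not overlap. *Sfrp5* stood at -1.13, -0.19 and -1.42, highest at WL1. *Bmp3* stood at -4.0, -3.10 and -3.80, so that its WL1 libraries were all above its Pre libraries. *Nnat* stood at -0.56 at Pre, -0.090 at WL1 and 0.36 at WL2, and no library overlapped between phases. In its own level, WL1 and Pre overlapped, with a log2 fold change of -0.057. The differences from the adipocyte genes are descriptions of levels, without a test. The share of all genes without overlap was not computed on this scale.

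**Figure D4:**
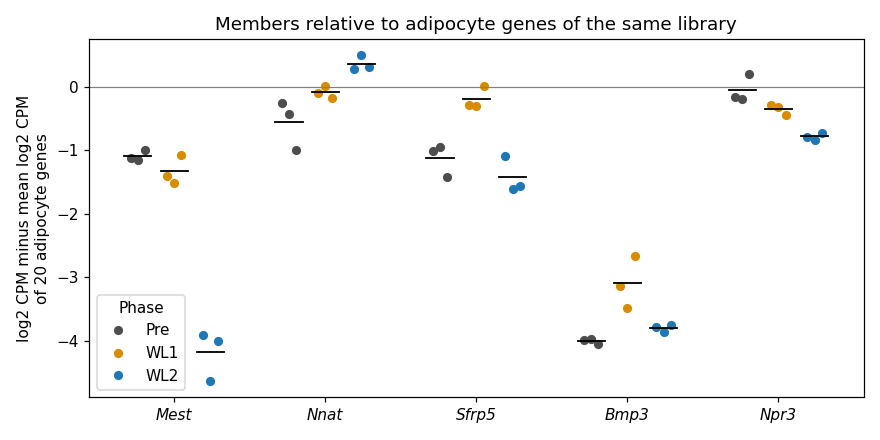
Log2 CPM of 5 genes minus the mean log2 CPM of 20 adipocyte genes in the same library (vertical axis) at Pre (grey), WL1 (orange) and WL2 (blue). Points are libraries and bars are means of 3 libraries. *Mest* overlaps between Pre and WL1 and lies near -4 at WL2, and *Nnat* climbs across 0 from Pre to WL2.

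Across the 9 libraries, the genes with the profile most like that of a member differed from member to member. By Pearson's r of log2 CPM, *Kcnj14* (r = 0.988), *Mrc2* (r = 0.987) and *Slc5a7* (r = 0.986) were nearest to *Mest*. The second, a collagen-binding endocytic receptor gene, had means of 289, 218 and 55.5 CPM at Pre, WL1 and WL2. *Serpina3c* (r = 0.991), *Slc22a3* (r = 0.972) and *Tdrp* (r = 0.968) were nearest to *Npr3*. For *Nnat* they were *Dcst2* (r = 0.976), *Lims2* (r = 0.973) and *Agt* (r = 0.969), the gene for angiotensinogen, with means of 160, 150 and 321 CPM. For *Sfrp5* they were *Rab35*, *Kif2c* and *Inppl1* (r = 0.937, 0.936 and 0.932), and for *Bmp3* they were *Prelid2*, *Klc1* and *Slc7a8* (r = 0.937, 0.913 and 0.910). For *Egfl6*, with its few reads, the values were 0.959 for *Nup54*, 0.956 for *Scn3b* and 0.951 for *Sult1e1*. Among the members themselves, r was highest between *Mest* and *Npr3* (0.634), *Sfrp5* and *Bmp3* (0.624) and *Mest* and *Sfrp5* (0.611), and it was -0.759 between *Mest* and *Nnat*. The points are the same 9 libraries in 3 phases, so a shared difference between phases is enough to give a high r.

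Over all 6 lists of related genes together, 138 of 155 genes were tested, and 5 rose and 12 fell at WL1 against Pre, 13 rose and 13 fell at WL2 against Pre, and 7 rose and 8 fell at WL2 against WL1. That is 12.3%, 18.8% and 10.9% of the tested list genes in the 3 comparisons, where 2.6% of all tested genes rose and 4.69% fell in the first, 3.35% and 6.66% in the second and 1.31% and 2.37% in the third. The lists were chosen with earlier results of these data known, so their larger shares are no independent result. With library totals as the only scaling, the median log2 fold change of all genes moved to 0.12 at WL1 and 0.16 at WL2 against Pre, and the share of higher genes among all those past the threshold went from 35.7% to 61.0% and from 33.5% to 64.2%. The direction of *Mest*, *Npr3*, *Sfrp5* and *Bmp3* against Pre was the same under that scaling, whereas that of *Nnat* at WL1 turned to 0.047.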

How the data were processed

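RNA of epididymal adipose tissue was sequenced in 9 libraries, with phases and numbers assigned from the labels. The authors deposited counts of reads per gene, whole numbers without normalization, and FPKM per gene, scaled by gene length and library size, for the same libraries. The submitters' processing notes name CASAVA, HISAT, HISAT2 and TopHat2 and the builds GRCm38 and mm10. No source used here gives the counting program, the annotation or the strand setting. Gene coordinates are those of the authors' table and matched GENCODE M21 on GRCm38 for 0 of the 6 genes, so they are printed without a build. For example, *Nnat* starts at 157560078 in GENCODE M21 and at 157401998 in the authors' table. The gene coordinates should therefore not be set against the promoter positions, which are on GRCm38.p6.

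The counts of genes that reached 0.5 CPM in at least 1 library were tested with edgeR 4.0.16 in R 4.3.3 (glmQLFit and glmQLFTest, TMM factors, 1 model over 9 libraries without covariates), with Benjamini-Hochberg adjustment over 18510 genes and a threshold of 0.05. SE was the log2 fold change divided by the root of F, and log2 CPM used a prior count of 4. An exact counting interval of the summed *Egfl6* reads, from SciPy 1.17.1, is not printed, since it leaves out the spread between libraries. The fits were tested on simulated data first. Alternatives used every detected gene, genes at 0.5 CPM in 3 libraries, RLE, upper quartile or library-total scaling, a replicate block, the 2 compared phases alone, DESeq2 1.42.0, limma 3.58.1 on log2(FPKM + 1) or log2(FPKM + 0.1), and 8 of the 9 libraries.

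Named genes are the 6 members, genes overlapping them, their nearest relatives and *Lep*, the 3 genes of each list that changed most at WL2 against Pre among those past the threshold and at a mean of at least 1 CPM (and up to 3 in the other direction), the 3 protein-coding genes most like each member, and cell type markers. Some genes that this rule or the window names are not reported here. Other genes of the lists past the threshold, and the neighbors within 500 kb, were named after their values were seen. The members and lists were chosen with earlier results of these data known. Promoters came from a RefSeq table on GRCm38.p6, in which 5 of the 6 genes matched, and protein sequences were not used here. Within a phase no 2 libraries were alike within counting error (chi-square per degree of freedom 9.13 to 48.9).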

Additional observations from a re-analysis of the deposited data

How the results depend on the processing

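Deviations from the phase means showed no pairing by replicate number. They correlated from -0.277 to 0.107 between libraries with the same number, above 0.1 in 1 of 9 pairs. Between libraries with different numbers they correlated from -0.197 to 0.239. With 3 libraries per phase, this cannot exclude a shared block. With the replicate block, 1 member was past the threshold at WL1 against Pre (*Npr3* was lost, log2 fold change -0.78, adjusted p = 0.0549) and 11 genes of the related lists, against 2 and 17 without it, and member counts of the other comparisons were the same. Of the members at WL1 against Pre, 1 passed with limma on log2(FPKM + 0.1), and at WL2 against WL1 1 passed with upper quartile scaling, limma on log2(FPKM + 1) and limma on log2(FPKM + 0.1). With library totals alone, 5 members differed among the phases instead of 3. With all libraries, the member count was 3 instead of 2 at WL1 against Pre with library totals alone, at WL2 against Pre with no filter, DESeq2 and library totals alone, and at WL2 against WL1 with no filter, DESeq2 and the 2 phases alone. Leaving out 1 library gave 0 to 2 members at WL1 against Pre, 1 to 3 at WL2 against Pre and 1 to 2 at WL2 against WL1.

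For genes of the related lists, WL1 against Pre gave 31 with DESeq2, 11 with limma on log2(FPKM + 0.1), 10 in the 2 phases alone and 8 to 20 without 1 library. WL2 against Pre gave 26, with 17 for limma on log2(FPKM + 0.1) and 11 to 25 without 1 library. WL2 against WL1 gave 15, with 28 without a filter, 32 with DESeq2, 9 with limma on log2(FPKM + 0.1) and 3 to 20 without 1 library. Signs turned for 2 differences that did not pass. *Npr3* at WL2 against WL1 was 0.0078 with upper quartile scaling, 0.0063 and 0.065 without WL1 replicates 1 and 2, and as low as -0.19 without 1 library. *Nnat* at WL1 against Pre was 0.047 with library totals alone, 0.24 without Pre replicate 1 and 0.094 without WL1 replicate 3, and as low as -0.29 without 1 library. The causes were not tested. Leaving out 1 library changes which libraries are used as well as their number. Genes near 0.5 CPM rest on few reads per library.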
